A study of Mus musculus with 10 samples.

Results

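STAT5 binding was examined over an interval of mouse chromosome 13 chosen as that of the main histone gene cluster, whose gene symbols start with Hist1. The interval ran from 21800000 to 23850000 (mm9), a length of 2.05 Mb, and every peak of 3 deposited lists that overlapped it was a member. It held 22 of 26237 wild type STAT5A peaks, 14 of 6976 wild type STAT5B peaks and 12 of 2578 Stat5a-null STAT5B peaks, together 48 of 35791 peaks. The interval was chosen on measured values, because STAT5B peaks with no STAT5A peak nearby had been seen to gather there. The number of such peaks is therefore a description and was not tested. Peak positions are on mm9, while the gene table used here is of GRCm38, so peaks are given by position, they are not tied to genes, and whether histone genes lie at these mm9 positions was not checked. The GRCm38 table, in which most Hist1 symbols are older names (Hist1h1e is listed as H1f4), gave 56 such genes on chromosome 13. These are described by family, order and sequence only.

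Chromatin immunoprecipitation and sequencing (ChIP-seq) was done on mammary tissue taken at parturition from mice of a mixed background (129SV::FVB/N::C57BL/6). Tissue labelled AABB came from wild type mice with both Stat5a and Stat5b. Tissue labelled BB came from Stat5a-null mice, which keep Stat5b. Each of the 3 lists came from 1 library. The labels do not give the number of animals behind a library, and no difference between libraries has a replicate check.

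STAT5A and STAT5B are transcription factors that are activated in mammary epithelium by prolactin through JAK2, and they bind DNA as dimers at the letters TTCNNNGAA. The Hist1 genes encode the linker histone H1 and the core histones H2A, H2B, H3 and H4 that are made in bulk when DNA is replicated. Their mRNAs end in a stem-loop in place of a poly(A) tail, and the genes are gathered with factors such as NPAT in a nuclear body, the histone locus body.

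The gene table places the Hist1 genes in 4 runs of neighbours, interrupted by other gene families. Of the 56 genes, 6 encode H1, 15 H2A, 15 H2B, 9 H3 and 11 H4, and 2 of the 56 are annotated as pseudogenes. The first run held 19 genes from Hist1h2bl to Hist1h2br, the second 5 from Hist1h2ah to Hist1h2bj, the third 29 from Hist1h4h to Hist1h1a, and the last the pair Hist1h2ba and Hist1h2aa, which are known for their expression in testis. The remaining gene, Hist1h2al, lay apart from the cluster. Between the first run and the second stood 39 entries, 31 of them tRNA genes, with the protein-coding genes Zfp184, Pom121l2 and Prss16. Between the second run and the third stood 147 entries, among them 75 vomeronasal receptor genes or pseudogenes, 46 tRNA genes, and the coding genes Gm11295, Zfp322a, Abt1, Btn1a1 and Btn2a2. Btn1a1 encodes butyrophilin, a membrane protein of milk fat globules. Hfe, which takes part in the control of iron uptake, lay inside the third run.

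Sequence before the gene starts was read to see which short motifs the Hist1 genes share. RefSeq promoter sequence (GRCm38.p6) was found for 51 of the 56 genes, and not for Hist1h2aj, Hist1h2al, Hist1h2bc, Hist1h3a and Hist1h3f. Motifs were searched on both strands of the 250 bases before the start. The STAT letters TTCNNNGAA were present in 1 of the 51 genes, against 8.13% of the 27025 genes with a sequence. That gene was Hist1h1e, which encodes an H1 linker histone found in most tissues. Its 250 bases before the start (minus strand of chromosome 13) are shown because they hold the single match, which runs from base 195 to base 187 before the start. Capitals mark the match. The promoters of Hist1h2bg and Hist1h4i are shown to compare an H2B with an H4 gene, on the plus and minus strand. They were chosen after the matches were seen. Capitals there mark ATTTGCAT, the pentamer CCAAT on either strand, and each TATAAA.
Hist1h1e: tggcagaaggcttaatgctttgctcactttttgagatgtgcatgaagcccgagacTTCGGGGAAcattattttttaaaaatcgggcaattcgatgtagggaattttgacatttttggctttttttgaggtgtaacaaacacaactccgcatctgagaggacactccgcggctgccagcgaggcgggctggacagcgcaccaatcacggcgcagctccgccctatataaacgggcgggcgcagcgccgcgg
Hist1h2bg: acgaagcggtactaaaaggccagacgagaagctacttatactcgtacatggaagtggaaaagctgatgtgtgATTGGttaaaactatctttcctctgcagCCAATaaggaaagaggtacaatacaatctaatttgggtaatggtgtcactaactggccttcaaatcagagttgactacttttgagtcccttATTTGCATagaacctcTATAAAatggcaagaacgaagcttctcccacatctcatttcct
Hist1h4i: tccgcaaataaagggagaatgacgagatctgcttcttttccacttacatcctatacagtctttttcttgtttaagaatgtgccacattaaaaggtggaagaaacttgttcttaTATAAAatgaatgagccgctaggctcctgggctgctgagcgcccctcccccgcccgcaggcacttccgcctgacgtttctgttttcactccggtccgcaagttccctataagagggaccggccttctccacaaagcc

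CCAAT, the letters bound by NF-Y, stood before the start of 43 of the 51 Hist1 genes, against 37.5% of all genes. All 6 H1, 13 H2A, 14 H2B and 7 H3 genes with a sequence held it, and 3 of the 11 H4 genes did, which set H4 apart from the other families. TATAAA was found in 26 of the 51 genes, against 14.3% of all genes, and in every family. The octamer ATTTGCAT, a site of the OCT1 factor known from H2B promoters, was found in 11 genes, 6 of them H2B and 5 H2A, against 1.81% of all genes. In Hist1h2bg it ran from base 59 to base 52 before the start, next to a TATAAA from base 43 to base 38. These genes are not independent: 10 pairs of an H2A and an H2B gene on opposite strands shared at least 100 bases of promoter, Hist1h2ae and Hist1h2bg among them with 279 shared bases. GTTCNANNC, the core of the internal B box of tRNA genes, was found in 5 Hist1 genes (Hist1h2ae, Hist1h2ao, Hist1h2bg, Hist1h3d and Hist1h3i), against 8.95% of all genes. Its match in Hist1h2bg ran from base 55 to base 47 and overlapped the octamer. The match in Hist1h2ae is the same site, read from the opposite strand of the promoter these genes share.

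**Figure D1:**
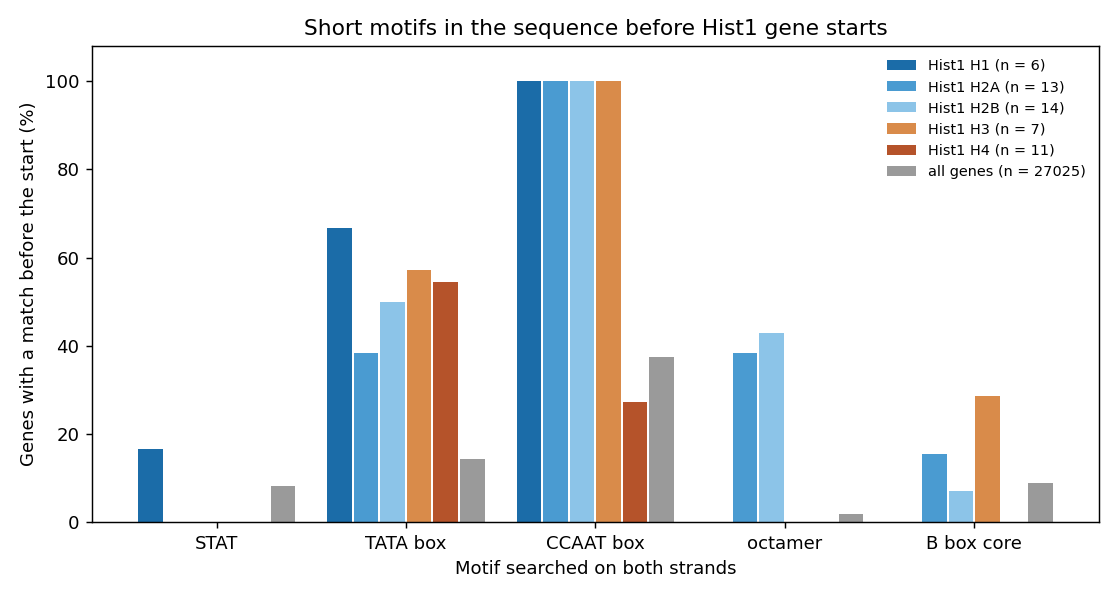
Share of genes (%) with each motif in the 250 bases before the start, by Hist1 family and for all genes, with the number of genes in the legend. CCAAT is present in every H1, H2A, H2B and H3 gene with a sequence, and the octamer stands before H2A and H2B genes and before none of the H1, H3 and H4 genes, while the STAT bar of the H1 family is a single gene, Hist1h1e.

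Other histone genes differed from the Hist1 genes in part. Of 11 genes named Hist2, Hist3 or Hist4, which are also tied to DNA replication, 8 held CCAAT, 3 the octamer, 3 TATAAA and 1 the STAT letters. Of 9 genes of replacement variants such as H2afz and H3f3a, made outside DNA replication too, 5 held CCAAT, 1 the octamer, 1 TATAAA and none the STAT letters. Among 7 regulators of histone genes such as Npat and Slbp, 4 held CCAAT, 1 TATAAA, 1 the STAT letters and none the octamer. Median GC content of the 250 bases was 44.6% over Hist1 genes, 71.2% over variants, 65.2% over regulators and 52.4% over all genes, and its part in these shares was not tested. A match describes the letters only, and its absence says nothing of binding in the interval.

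The peaks of the interval fell into 2 groups of similar length. The first, from 21821415 to 22143290 (322 kb), held 6 STAT5B peaks of the wild type list and 4 of the Stat5a-null list, with 7 of STAT5A. The second, from 23517314 to 23848952 (332 kb), held 8 and 8, with 14 of STAT5A. A lone STAT5A peak (22952148 to 22952423, score 41.6) lay between them, with its centre 809 kb and 565 kb from the nearest peaks of either group. Both groups mixed STAT5B peaks that had a STAT5A partner with STAT5B peaks that had none. The nearest STAT5A peaks outside lay 186 kb before the interval and 420 kb after it. The last STAT5B peak without STAT5A ended 1.09 kb inside the interval's end in wild type and 1.05 kb in Stat5a-null tissue, so that end lies just past a member. The nearest STAT5B peaks outside lay 1452 kb before it in both genotypes, and 515 kb after it in wild type or 2135 kb in Stat5a-null tissue, and each overlapped a STAT5A peak.

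**Figure D2:**
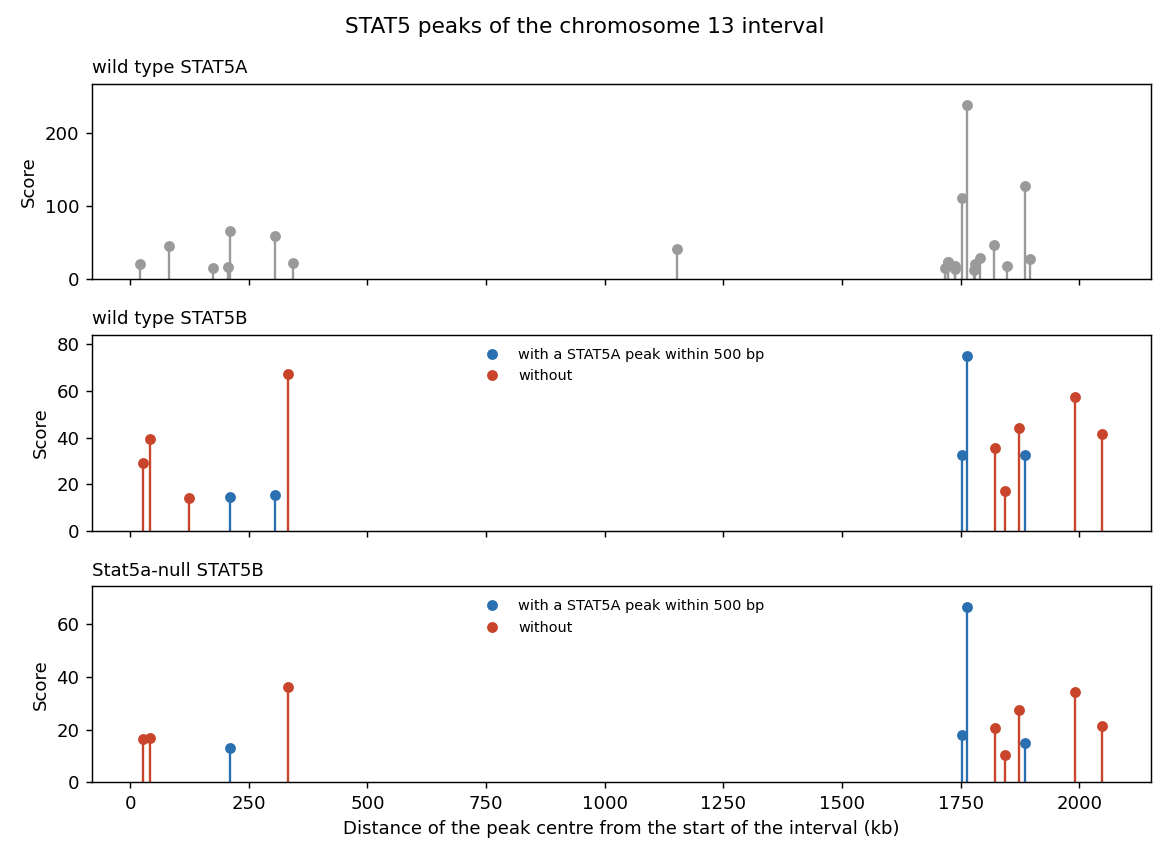
Score of each peak (vertical axis, authors' units, scaled per list) against the distance of its centre from the start of the interval (kb), in panels for STAT5A (22 peaks) and for STAT5B of wild type (14) and of Stat5a-null tissue (12). Red STAT5B peaks have no STAT5A peak within 500 bp. They occur in both groups of peaks, and 8 of the 9 red wild type peaks have a red Stat5a-null peak at the same place.

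Peak numbers of the interval were set beside those of windows of the same length tiled from its start, 1197 of which held a peak. The median window had 20 STAT5A peaks against 22 in the interval, and 560 windows had at least as many. For wild type STAT5B the median was 5 against 14, and 98 windows had at least as many. For Stat5a-null STAT5B the median was 1 against 12, and 8 windows, the interval included, had at least as many. These STAT5B numbers include the peaks the interval was chosen for. Those with a STAT5A peak numbered 5 in wild type, equal to the median window's total, and 4 in the Stat5a-null list.

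In wild type tissue 9 of the 14 STAT5B peaks had no STAT5A peak within 500 bp, measured edge to edge, where the whole list gives 0.473%. In Stat5a-null tissue 8 of 12 had none, where the whole list gives 1.01%. No member lay near the limit: the peaks with a partner all overlapped it, and the nearest STAT5A peak to one without stood 3.23 kb away. Scores are the authors' values, 1 per peak, on a scale that is not stated. All scores of a list were whole multiples of 1 step, and if a step is 1 sequence tag, a score has a counting error. The ranges in brackets are exact Poisson 95% intervals on that reading. They cover counting error only, and tags without molecular identifiers need not be independent molecules.

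The highest STAT5B peak without STAT5A ran from 22133187 to 22133438, with a wild type score of 67.1 (59.5 to 75.4), rank 28 of 6976. In Stat5a-null tissue its score was 36.2 (31.0 to 42.0), rank 141 of 2578. It lay at the end of the first group, 9.58 kb from a STAT5A peak with a score of 22.3. Toward the start of the same group stood a pair of peaks without STAT5A, at 21826732 to 21826983 and at 21842364 to 21842615. The former had scores of 29.1 (24.2 to 34.7) in wild type and 16.4 (12.96 to 20.5) in Stat5a-null tissue. The latter had 39.2 (33.4 to 45.7) and 16.6 (13.1 to 20.7). Wild type scores of this pair differed, though their ranges overlapped slightly, while their Stat5a-null scores were nearly equal.

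A weaker site of the first group was the one STAT5B peak without STAT5A that was not called in Stat5a-null tissue. It ran from 21923909 to 21924160 and scored 14.1 (10.7 to 18.2) in wild type, rank 5048, with the nearest STAT5A peak 40.8 kb away. The lowest score in the Stat5a-null list was 8.2, on that list's own scale.

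In the second group 5 STAT5B peaks lacked STAT5A, and all 5 were found in both genotypes. Between 2 stretches with STAT5A, the peak from 23622759 to 23623010 scored 35.6 (30.1 to 41.8) in wild type and 20.6 (16.7 to 25.1) in Stat5a-null tissue. It had the closest STAT5A neighbour of these peaks, 3.23 kb away with a score of 47.2. The peak from 23643436 to 23643687 was the weakest of the 5, at 17 (13.3 to 21.4) and 10.3 (7.62 to 13.6), and ranked 2566 of 2578 in the Stat5a-null list. The peak from 23673250 to 23673501 scored 44.2 (38.1 to 51.0) and 27.4 (22.9 to 32.5). It stood 11.4 kb from one of the strongest STAT5A peaks of the interval.

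The last pair of peaks stood alone, past the last STAT5A peak of the interval. The peak from 23790264 to 23790515 scored 57.3 (50.3 to 65.0) in wild type and 34.3 (29.2 to 39.99) in Stat5a-null tissue, with the nearest STAT5A peak 94.8 kb away. The peak from 23848654 to 23848905 scored 41.6 (35.6 to 48.3) and 21.3 (17.3 to 25.9), and its nearest STAT5A peak was 153 kb away. Their ranks of 71 and 325 placed both among the highest 4.66% of the wild type list.

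The 5 wild type STAT5B peaks with STAT5A included the strongest STAT5 site of the interval. From 23563563 to 23563814 STAT5B scored 75 (66.9 to 83.8) in wild type and 66.3 (59.2 to 74.0) in Stat5a-null tissue, ranks 16 and 11. The STAT5A peak there scored 239.3 (226.9 to 252.2), rank 4 of 26237, and its centre lay 8 bp from that of wild type STAT5B. Shortly before it, at 23552705 to 23552956, STAT5B scored 32.5 (27.3 to 38.4) and 18.1 (14.5 to 22.4) beside a STAT5A score of 112. At 23685035 to 23685286 STAT5B scored 32.7 (27.5 to 38.7) and 14.9 (11.6 to 18.8) beside a STAT5A score of 127.4. These 3 sites of the second group were the only STAT5A peaks of the interval with scores above 100.

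The first group held 2 weaker shared sites. At 22011162 to 22011413 STAT5B scored 14.6 (11.2 to 18.8) in wild type and 13 (9.97 to 16.7) in Stat5a-null tissue beside a STAT5A score of 65.6. At 22106036 to 22106287 wild type STAT5B scored 15.3 (11.8 to 19.5) beside a STAT5A score of 59.8, and no Stat5a-null peak was called. In wild type tissue STAT5B peaks of the interval without STAT5A had a median score of 39.2 (n = 9, from 14.1 to 67.1). Those with STAT5A had a median of 32.5 (n = 5, from 14.6 to 75). The ranges largely coincided, and no difference between the classes was tested.

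STAT5A peaks with a STAT5B partner were the high ones of the interval. The 5 with a wild type STAT5B peak within 500 bp scored from 59.8 to 239.3, and the 17 without scored from 12.2 to 47.2. Higher STAT5A scores beside STAT5B were not particular to the interval. Over the whole list STAT5A peaks with such a partner had a median score of 72 (5th percentile 39.7, lowest 14.3). The median of all STAT5A peaks was 27.1. Over the whole list 26.6% of STAT5A peaks had such a partner, against 5 of 22 here. The highest of the 17 were at 23619251 to 23619526 (47.2), at 21882876 to 21883151 (45.2) and the lone peak between the groups (41.6). Next came those at 23591432 to 23591707 (29.2) and at 23695191 to 23695466 (27.5), and the remaining 12 lay between 12.2 and 23.7. Over the whole list 36.4% of the 1303 STAT5A peaks with scores from 41.6 to 47.2 had a wild type STAT5B peak, so a STAT5A peak of that height without STAT5B was common.

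STAT5B peaks as high as those of the interval rarely lacked a STAT5A peak elsewhere, and most of their STAT5A partners were high. A limit at the 7th highest of the 9 peaks, a score of 29.1, was set after the values were seen. Over the whole list 1086 STAT5B peaks with scores between 29.1 and 67.1 had a STAT5A peak within 500 bp, and it scored a median of 139 (lowest 80.4, highest 228.8). With no upper limit there were 1106 such peaks, and the lowest STAT5A score beside one was 32.5. The 7 interval sites are by definition those with no listed STAT5A peak, and the lowest score in that list was 11. Whether STAT5A signal too weak to be listed lay at them was not tested. Of all 1124 wild type STAT5B peaks with a score of at least 29.1, 18 had no STAT5A peak, and 7 of these 18 lay in the interval. Outside the interval 11 of 1114 such peaks had none (0.987%), and 7 of these 11 scored above 67.1. Among STAT5B peaks of any score outside the interval 24 of 6962 had none (0.345%). Lacking STAT5A was thus rare at both limits, but not rarer among the higher peaks. The interval was chosen for the gathering of peaks without STAT5A, so the 7 inside it are a description. The 5 interval peaks with STAT5A lay among the other peaks of their height.

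**Figure D3:**
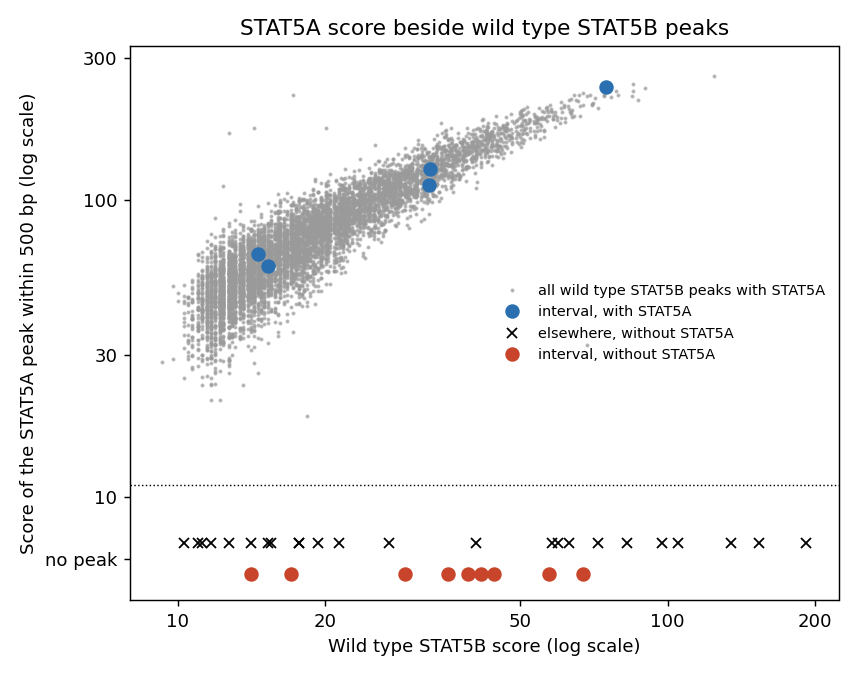
Score of the STAT5A peak within 500 bp against wild type STAT5B score (both log scale) for all 6976 wild type STAT5B peaks. The 33 peaks with no STAT5A peak are drawn at the foot at arbitrary heights, below the dotted line at the lowest STAT5A score of 11. The 5 blue interval peaks lie in the band of all peaks and the 9 red ones have no STAT5A peak.

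STAT5B peaks of the interval were mostly found in both genotypes. Of the 14 wild type peaks 12 overlapped a Stat5a-null STAT5B peak, where the whole list gives 34.8%, and all 12 Stat5a-null peaks overlapped a wild type one, where the whole list gives 94.1%. Of the 9 peaks without STAT5A 8 were shared, and of the 5 with STAT5A 4 were. Of the 14 peaks 10 scored in the higher 50% of the wild type list, and the part of height in the shared number was not tested. In the 12 shared peaks the centres in the 2 genotypes differed by 0 to 44 bp, with a median of 16.5 bp, against 19 bp over all 2426 pairs.

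The 8 shared peaks without STAT5A had lower scores in Stat5a-null tissue, relative to wild type, than most pairs did. Since the scale of the lists is not stated, each pair's ratio of Stat5a-null to wild type score was read against the median ratio of all 2426 pairs, 0.698. A factor that scales a whole list moves both alike. Pairs exist only for the 34.8% of wild type peaks that were also called in Stat5a-null tissue. That median therefore leaves out sites with no Stat5a-null peak and does not describe a typical wild type site. The 8 ratios ran from 0.423 to 0.620 with a median of 0.571, all below 0.698. Over all pairs ratios ran from 0.236 to 1.77, with quartiles of 0.581 and 0.837. The 8 stood at percentiles 4.08 to 33.2 of them, in the lower part of that spread and not outside it. In counting error alone, the 95% intervals of 3 of the 8 lay wholly below the median of 0.698, so most single sites could not be told from it. Those 3 were at 21842364 (0.423, interval 0.320 to 0.559), at 22133187 (0.539, 0.444 to 0.654) and at 23848654 (0.512, 0.396 to 0.657). Against the 2121 pairs with wild type scores in the range of these 8, whose median ratio was 0.672, all 8 were also lower. All 8 come from 1 stretch of 1 chromosome in 1 library per genotype, so their agreement is no replication.

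**Figure D4:**
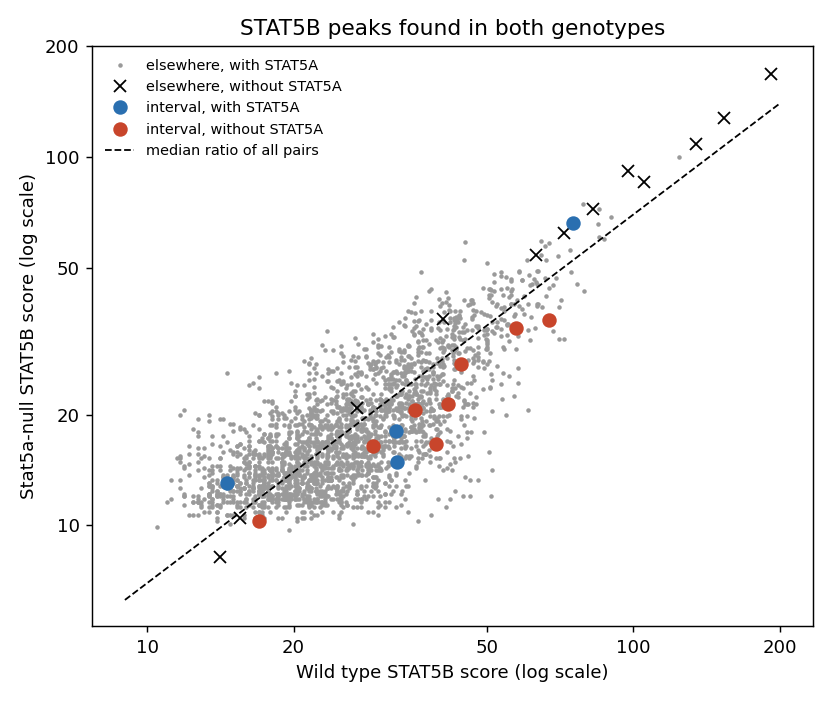
Stat5a-null against wild type STAT5B score (both log scale) for the 2426 peaks found in both genotypes, with the median ratio of 0.698 as a dashed line. The 8 red interval peaks without STAT5A lie below the line, and most black crosses, the 12 peaks elsewhere without STAT5A, lie above it.

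The 4 shared peaks of the interval with STAT5A varied more. The ratio was 0.884 at the strongest site and 0.890 at 22011162, above the median of all pairs, and 0.557 and 0.456 at 23552705 and 23685035, below it. For the last of these the counting interval (0.338 to 0.613) lay wholly below 0.698. Both classes of interval peaks thus held ratios well under the median, and no test between them was made.

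STAT5B peaks without STAT5A at other places mostly had higher ratios than those of the interval. The other 24 wild type peaks of this kind lay on 15 chromosomes, with at most 3 on a chromosome, and 1 pair of them lay closer together than the length of the interval. The interval was chosen for the gathering of such peaks, so this spacing is no finding. Their scores ran from 10.3 to 191.8, and 5 of them ranked in the first 10 of the list, as none of the interval did. In Stat5a-null tissue 12 of the 24 were found, and the other 12 were not. The 12 pairs had ratios from 0.582 to 0.943 with a median of 0.846, and in 11 of the 12 the ratio was above the highest of the 8 interval pairs. That highest ratio, 0.620, stood at percentile 33.2 of all 2426 pairs, so most pairs of any kind also lay above it. The first and strongest of the 12, on chromosome 11 from 108873125 to 108873376, scored 191.8 and 168.1, a ratio of 0.876 (0.794 to 0.968). At 7 of the 12 the wild type score was above that of any interval peak without STAT5A. With 8 and 12 pairs and 1 library per genotype, this difference is a description.

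**Figure D5:**
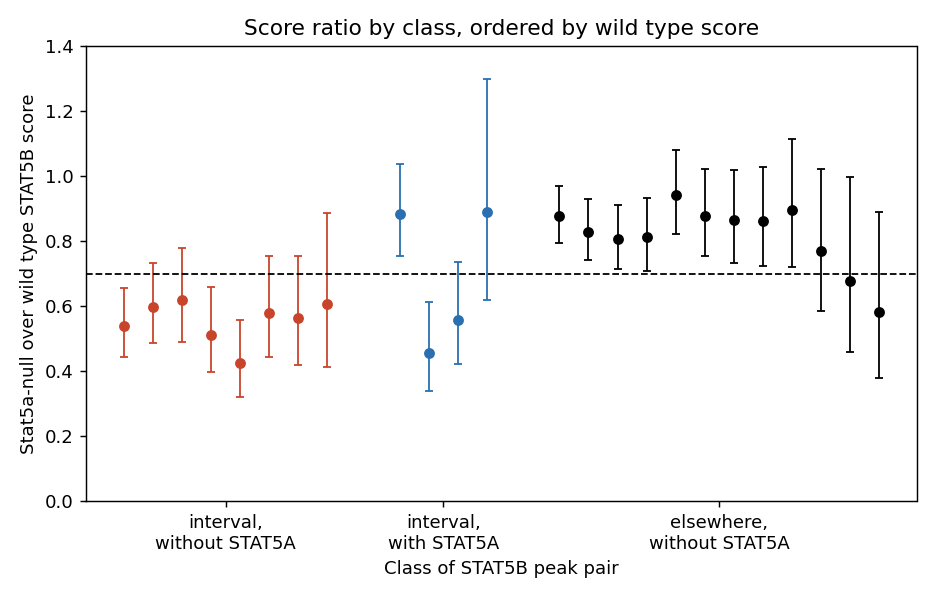
Ratio of Stat5a-null to wild type STAT5B score for 8 interval pairs without STAT5A (red), 4 interval pairs with STAT5A (blue) and 12 pairs elsewhere without STAT5A (black), each ordered from high to low wild type score. Bars are exact 95% counting intervals and the dashed line is the median of all 2426 pairs, 0.698. All red points lie below it and 10 of 12 black points above it.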

How the data were processed

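The submitters' processing notes name CASAVA, BWA, HOMER and mm9. Versions, calling thresholds and which control libraries were used in peak calling were not stated in the sources used here. The names of the lists carry a number whose meaning was not stated. The authors deposited 1 signal value per peak, called the score, with no stated scale. Total reads are unknown. Tags per peak were the score divided by the list's step (0.172 for STAT5A, 0.239 for wild type and 0.210 for Stat5a-null STAT5B), the value of which every score was a multiple within a rounding tolerance of 0.05. Another step also fitted each STAT5B list, and the one whose low multiples were nearly all present was used. Medians were 158, 74 and 79.5 tags.

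Starts are printed 1-based. Interval peaks overlap it by at least 1 bp. Genotype pairs overlap by at least 1 bp, and their score ratios have exact binomial 95% intervals from the tags. Windows were tiled from the interval's own start. A run of Hist1 genes may hold up to 3 other entries in a row. Python 3.11.15, numpy 2.4.6, pandas 2.3.3 and scipy 1.17.1 were used, and distances and motif searches were tested on simulated data. No test between groups was made with 1 library each. The other 7 samples were not analysed here. They include an input library of each genotype and a STAT5A library of Stat5a-null tissue, so interval peaks were not checked against these.

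The interval, lists and motifs were chosen with earlier results of these data known. The rule for named items was every STAT5B peak of the interval, the 10 highest STAT5A peaks of the interval, and the first and last Hist1 gene. Hist1 genes near peaks, the nearest gene of each peak, peaks within the span of the Hist1 genes and the STAT motif within peaks were planned but not run, since no mm9 gene table or sequence was used.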

Additional observations from a re-analysis of the deposited data

How the results depend on the processing

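Of 30 alternatives of 14 values, 22 stayed within 1.5 times the count and 8 moved. Calling a STAT5A partner by overlap, within 100 bp or within 1 kb changed none of the interval's counts with or without STAT5A in either genotype, and requiring 50% overlap or allowing 500 bp between genotypes left 12 shared peaks. Taking the higher-scoring 50% of each list, which removes peaks by construction, left 10 STAT5A and 7 Stat5a-null peaks in the interval, and 7 wild type STAT5B peaks found in both genotypes. With STAT5A there were then 3 wild type and 2 Stat5a-null STAT5B peaks, and without STAT5A 7 wild type and 5 Stat5a-null peaks. The remaining alternatives were added after the data were seen. All 8 interval pairs without STAT5A also lay below the median of pairs of like wild type score and of the higher-scoring 50%. Reading 50 bases past the start added Hist1h2ba to the STAT letters (2 genes), and a spacing of 4 bases gave 4 other genes, Hist1h2bb, Hist1h2bh, Hist1h4m and Hist1h4n (7.84%, against 6.76% of all genes). Other distances to gene starts, the span of the Hist1 genes as the interval, and motifs within peaks were not run for want of mm9 genes and sequence. No replicate could be left out and depth, which limits the calling of weak sites, is unknown. No paired analysis was possible because each group has 1 library and no result comes from a test.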
